A study of Mus musculus with 40 samples.

Results

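Polycomb group proteins keep genes silent through marks on histones. The 10 genes of this group described here were chosen by name: the PRC2 genes Ezh1, Ezh2, Eed, Suz12 and Jarid2, and the PRC1 genes Bmi1, Rnf2, Ring1, Cbx7 and Cbx8. All 10 of 10 were found in each of the 6 expression tables, which list 16344 to 26640 genes. The tables hold 40 RNA sequencing libraries of bone marrow hematopoietic stem cells (HSCs) and multipotent progenitors (MPPs) in 12 groups.

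PRC2 places methyl groups on lysine 27 of histone H3 (H3K27me3). Its catalytic subunit is EZH2 or the paralog EZH1, held by the core subunits EED and SUZ12, and JARID2 is an accessory subunit that helps it reach chromatin. PRC1 attaches ubiquitin to histone H2A through RNF2 or its paralog RING1, with BMI1 as a partner of either, while CBX proteins such as CBX7 and CBX8 bind H3K27me3. In blood, Bmi1 is known for its need in HSC self-renewal, Ezh2 is known as a gene of dividing cells, and Ezh1 as the paralog that persists in cells that divide little.

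HIRA is a chaperone that loads the histone variant H3.3 outside DNA replication. The libraries labelled HIRA KO came from C57BL/6 mice with conditional deletion of Hira, and those labelled WT from C57BL/6 mice whose alleles the labels do not give. Every library, WT included, carries the same protocol text, with 2 intraperitoneal doses of 20 µg poly(I:C), which itself induces interferon. In the first cohort 2500 cells were sorted per library, 1 week after the first dose, giving 4 KO and 4 WT libraries of HSCs and as many of MPPs. In the H2B-GFP cohort the mice named carry Mx1-Cre, a Cre under an interferon-responsive promoter that is active in more than blood cells, and Hirafl/fl, with Rosa26-M2rtTA and TetOP-H2B-GFP, which together express a histone-GFP fusion under doxycycline. Their water held doxycycline (2 mg/ml) and sucrose (10 mg/ml) over a pulse of 6 weeks. Cells were sorted by GFP after a chase of 17 days, when the last poly(I:C) dose lay 15 days back. Each of its populations, GFP-high HSCs, GFP-high MPPs, GFP-low HSCs and GFP-low MPPs, has 3 KO and 3 WT libraries; GFP is diluted by division, so that GFP-low cells have divided more. Ages are not stated, nor whether each library is 1 animal, so that p-values measure the spread between libraries, which may be technical.

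Values are FPKM, fragment counts scaled for transcript length and library size, so that levels of different genes can be set side by side. Each table was scaled by itself and the 2 cohorts use different gene annotations, so levels were tested only within a table. First-cohort libraries held 18.86 to 33.47 M recovered reads (M, 10 to the power of 6), and H2B-GFP libraries 5.82 to 9.57 M. A single value of a member rested on 47 to 3169 reads. Hira itself does not verify the labels. It averaged 1.11 ± 0.275 FPKM in KO HSCs and 1.25 ± 0.362 FPKM in WT HSCs (SD, n = 4 each), and 1.19 ± 0.286 FPKM in KO MPPs and 1.35 ± 0.236 FPKM in WT MPPs (SD, n = 4 each). Across the 6 comparisons its difference ran from -0.23 to 0.13 on the log2 scale, with limma adjusted p of at least 0.692, so every direction below rests on the labels. Its total can hold reads from exons outside the deleted part, and the gene Gm28539 overlaps it on the same strand over 79211 bases. All 5 MPP markers had higher medians in MPPs than in HSCs in each of the 3 pairs of tables. Of 11 HSC markers, 8 had higher medians in HSCs in each pair, among them Slamf1, Hoxb5 and Mecom, and 3 (Procr, Hlf and Ly6a) had higher medians in MPPs in each pair. Ly6a, which codes for the sorting antigen Sca-1, had medians of 58.3 FPKM in HSCs and 123 FPKM in MPPs of the first cohort, and Hlf 27.8 FPKM in HSCs and 46.1 FPKM in MPPs. These tables were scaled apart, and no test was made. Slamf1, an HSC receptor, was at 5.2 to 12.6 FPKM in HSC libraries and 0.0754 to 0.821 FPKM in MPP libraries, and Flt3, an MPP receptor, at 1.49 to 6.98 FPKM in HSC libraries and 18.7 to 60.2 FPKM in MPP libraries. Some libraries stand apart. The fourth KO library of MPPs had a mean correlation of 0.9627 with its group, against 0.9709 to 0.9757 in the other MPP libraries. In each H2B-GFP population, every KO library correlated less with its group than every WT library did. GFP-low HSCs had 0.9454 to 0.9564 in KO and 0.9802 to 0.9812 in WT libraries. GFP-high MPPs had 0.9567 to 0.9669 in KO and 0.9775 to 0.9796 in WT. GFP-low MPPs had 0.9632 to 0.966 in KO and 0.9809 to 0.9825 in WT. GFP-high HSCs had 0.9735 to 0.975 in KO and 0.9762 to 0.9802 in WT. The summed level of 7 mature neutrophil markers reached 27800 FPKM in 1 KO library of GFP-low HSCs, against 3540 to 3870 FPKM in WT, and 23300 FPKM in 1 KO library of GFP-high MPPs, against 4080 to 5550 FPKM in WT. In both populations this was the third KO library. Summed levels of 8 cell type lists and 2 cell cycle lists had no overlap between KO and WT libraries in 14 of 60 cases. These were 4 of 10 lists in HSCs (6.2% of all single genes), 3 in MPPs (9.92%) and 2 in GFP-high HSCs (16.1%). There was 1 in GFP-high MPPs (13.3%), 2 in GFP-low HSCs (14.1%) and 2 in GFP-low MPPs (19.1%). A sum over a list is not a single gene, and no test of these sums was made. In HSCs the MPP markers were at 57.4 to 66.3 FPKM in KO and 72.4 to 81.6 FPKM in WT libraries, the macrophage markers at 30.9 to 33.3 FPKM in KO and 15.8 to 22.7 FPKM in WT, and the mast cell and basophil markers at 12.6 to 19.1 FPKM in KO and 10.3 to 11.4 FPKM in WT. In MPPs the HSC markers were at 274 to 330 FPKM in KO and 363 to 438 FPKM in WT libraries, and the mast cell and basophil markers at 22.7 to 73.5 FPKM in KO and 7.26 to 16.6 FPKM in WT. GFP-high HSCs had neutrophil markers at 4130 to 5250 FPKM in KO and 5310 to 7160 FPKM in WT libraries, and GFP-high MPPs had macrophage markers at 21.6 to 33.0 FPKM in KO and 16.2 to 21.3 FPKM in WT. GFP-low HSCs had erythroid markers at 367 to 1290 FPKM in KO and 109 to 202 FPKM in WT libraries, and B cell markers at 34.5 to 54.2 FPKM in KO and 29.4 to 33.3 FPKM in WT. GFP-low MPPs had HSC markers at 343 to 438 FPKM in KO and 468 to 506 FPKM in WT libraries. The other 4 cases are S phase and mitosis sums, given with Ezh2 below. Their part in the results below was not tested. In bulk RNA, fewer cells of a type and less RNA per cell cannot be told apart.

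Rnf2 and Eed held the first 2 places among the members in all 6 populations, with Rnf2 first in 5 of them and Eed in MPPs. In HSCs, Rnf2 averaged 16.8 FPKM over the 8 libraries (15.4 to 19.1 FPKM), Eed 14.4 FPKM (12.7 to 16.3 FPKM), Suz12 14.3 FPKM (10.9 to 17.9 FPKM) and Ezh2 12.5 FPKM (10.5 to 15.6 FPKM), whose ranges overlap. Bmi1 came next at 8.8 FPKM (7.26 to 10.6 FPKM), only just touching the range of Ezh2. Jarid2 averaged 5.35 FPKM (4.67 to 6.16 FPKM) and Ezh1 3.77 FPKM (3.03 to 4.8 FPKM), which overlap each other but not Bmi1. Cbx8 and Ring1, at 2.16 FPKM each, and Cbx7 at 1.74 FPKM (0.929 to 2.57 FPKM) were lowest and did not separate. In MPPs the order was Eed at 17.3 FPKM, Rnf2 at 15.8 FPKM, Suz12 at 14.5 FPKM, Ezh2 at 10.4 FPKM, Bmi1 at 9.8 FPKM, Jarid2 at 4.58 FPKM, Ezh1 at 4.27 FPKM, Ring1 at 3.35 FPKM, Cbx8 at 2.95 FPKM and Cbx7 at 2.05 FPKM. Each neighbour in that order overlapped the next in range, apart from Bmi1 and Jarid2.

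**Figure D1:**
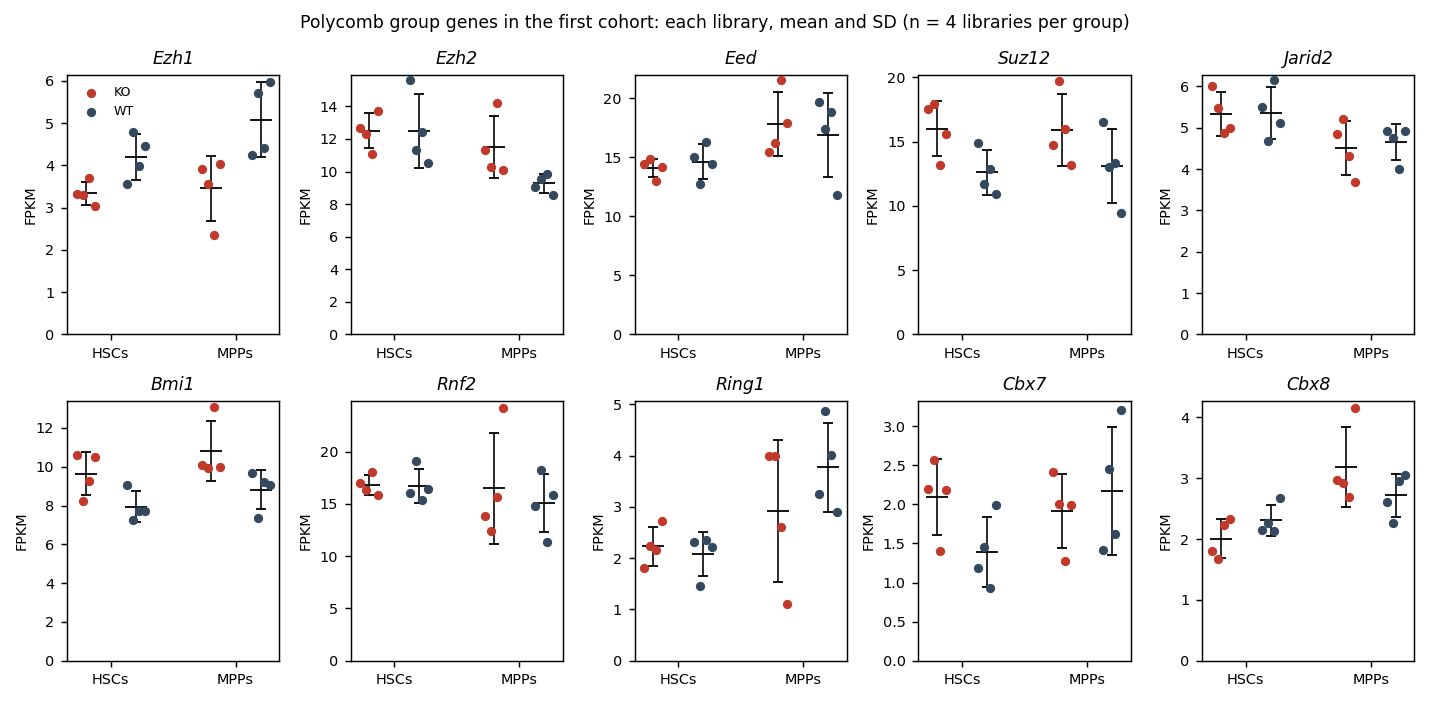
FPKM (y axis, from 0) of the 10 Polycomb group genes in the first cohort, 1 point per library, with KO left of WT for HSCs and for MPPs; bars are the mean and SD of 4 libraries. Ezh1 in MPPs lies at 2.35 to 4.03 FPKM in KO and 4.24 to 5.97 FPKM in WT libraries.

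In the H2B-GFP cohort Rnf2 again led, with 10.9 to 12.4 FPKM as the mean of each population, followed by Eed at 7.43 to 10.1 FPKM. The order below them was not the same. Suz12 averaged 3.4 to 4.71 FPKM and Bmi1 2.73 to 3.87 FPKM, beside Ezh1 at 4.25 to 6.39 FPKM. The mean of Bmi1 was under that of Ezh1 in all 4 populations, and that of Suz12 in the GFP-high ones. As a rank within the library, among 9338 symbols tested in all tables, Suz12 had a median percentile of 29.8 (24 libraries) in the H2B-GFP cohort and 66.1 (16 libraries) in the first. Bmi1 had a median percentile of 22.5 in the H2B-GFP cohort and 53.7 in the first. Cbx7 went the other way, with 30.0 in the H2B-GFP cohort and 8.43 in the first, and so did Cbx8, with 29.7 in the H2B-GFP cohort and 12.8 in the first. Rnf2 had 64.6 in the H2B-GFP cohort and 69.6 in the first. Cohort, annotation, time after poly(I:C) and depth cannot be told apart here, and no test was made.

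**Figure D2:**
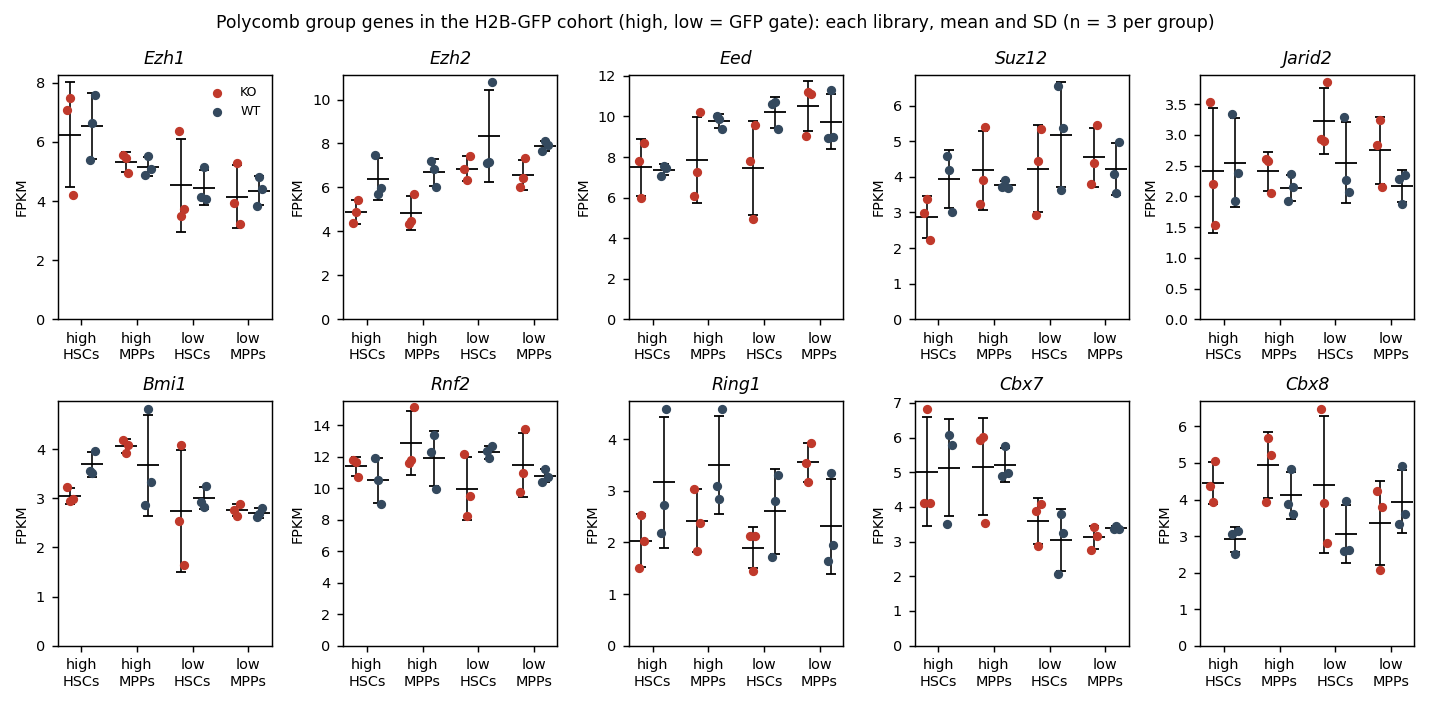
FPKM (y axis, from 0) of the same genes in the H2B-GFP cohort, 1 point per library, with KO left of WT in each GFP gate; bars are the mean and SD of 3 libraries. Ezh2 lies at 4.33 to 5.71 FPKM in KO and 6.01 to 7.21 FPKM in WT libraries of GFP-high MPPs.

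The first question was whether the genes differ between KO and WT cells. No member passed the test in any population (limma on log2(FPKM + 1), Benjamini-Hochberg adjusted p under 0.05 over all genes tested), and none did in limma-voom on recovered reads. In HSCs 0 of 10 members passed, where 17 of 13717 genes did (0.124%), and in MPPs 0 of 10, where 15 of 13916 did (0.108%). In GFP-high HSCs 0 of 10 passed, where 3 of 10850 genes did (0.0276%), and in GFP-low MPPs 0 of 10, where 34 of 10621 did (0.32%). GFP-high MPPs had 0 of 10 members past the test, as had 0.0% of 10789 genes, and GFP-low HSCs 0 of 10, as had 0.0% of 10705 genes. With so few calls in the background, 0 of 10 is what the share of all genes would give. The 60 differences lay between -0.45 and 0.49, and their 95% intervals between -0.94 and 0.97, on the log2(FPKM + 1) scale, which understates changes of low genes.

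At an unadjusted p under 0.05 there were 8 cases among the 60. They numbered 3 of 10 in HSCs (Ezh1, Suz12 and Bmi1; 10.1% of all genes), 1 in MPPs (Ezh1; 16.6%) and 2 in GFP-high HSCs (Ezh2 and Cbx8; 10.4%). There was 1 in GFP-high MPPs (Ezh2; 7.09%), 0 in GFP-low HSCs (8.57%) and 1 in GFP-low MPPs (Ring1; 12.3%). Groups without overlap between KO and WT libraries were found for 0 of 10 members in HSCs (6.2% of all genes), 3 in MPPs (Ezh1, Ezh2 and Bmi1; 9.92%) and 3 in GFP-high HSCs (Ezh2, Bmi1 and Cbx8; 16.1%). In GFP-high MPPs (13.3%) Ezh2 alone had no overlap, as it did in GFP-low MPPs (19.1%), while GFP-low HSCs had 0 such members (14.1%). Ezh2 is 4 of these 8 cases.

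**Figure D3:**
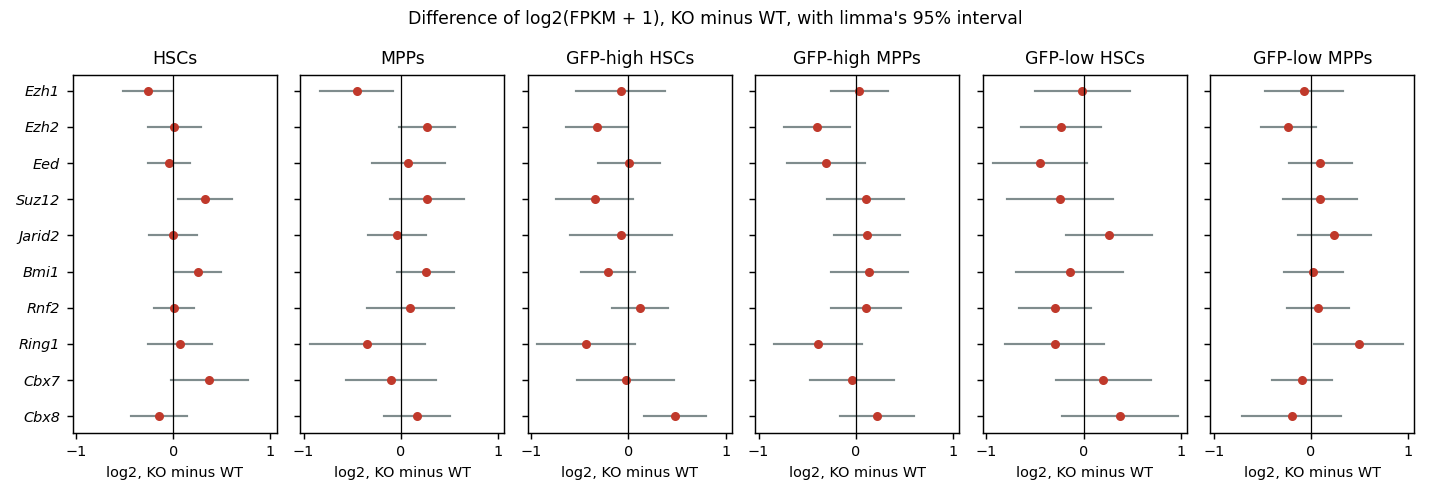
Difference of log2(FPKM + 1), KO minus WT (x axis), for the 10 genes in each population; points are the estimates and lines limma's 95% interval. Intervals of Ezh2 lie below 0 in both GFP-high populations and around 0 in the others.

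The promoters of the catalytic paralogs Ezh2 and Ezh1 are shown. This pair was picked after their levels were seen to run opposite ways with those of S phase genes. The windows run from 250 bases before to 50 after the RefSeq start of each gene (GRCm38.p6), in lower case, 5′ to 3′ on the gene's strand, with matches to TTTCCCGC, TTTGGCGC, TTTCGCGC or TTTGCCGC, 8-letter forms bound by E2F factors, in capitals.
Ezh2: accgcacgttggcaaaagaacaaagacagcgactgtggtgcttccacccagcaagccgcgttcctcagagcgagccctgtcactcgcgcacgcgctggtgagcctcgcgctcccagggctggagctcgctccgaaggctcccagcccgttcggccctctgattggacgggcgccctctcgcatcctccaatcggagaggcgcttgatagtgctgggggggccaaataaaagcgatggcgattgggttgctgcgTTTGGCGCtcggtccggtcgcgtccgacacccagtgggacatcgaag
Ezh1: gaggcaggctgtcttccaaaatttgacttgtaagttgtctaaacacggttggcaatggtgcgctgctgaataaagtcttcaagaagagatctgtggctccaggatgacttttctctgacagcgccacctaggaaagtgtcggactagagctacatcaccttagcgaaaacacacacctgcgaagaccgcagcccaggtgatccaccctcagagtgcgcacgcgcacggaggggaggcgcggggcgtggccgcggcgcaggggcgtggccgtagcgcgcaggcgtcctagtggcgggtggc
The Ezh2 window lies at chr6:47594981-47595280 on the minus strand and the Ezh1 window at chr11:101226414-101226713, also on the minus strand. The Ezh2 window holds TTTGGCGC, starting 3 bases after the start base, and the Ezh1 window holds none of the 4 words on either strand. Suz12 has TTTCCCGC in its window, at position -219 from the start base, and no window of any other member has one. Pearson r with the summed S phase genes, given below, was 0.55 for Eed and -0.51 for Cbx7, which have none. It was 0.70 for Ezh2, 0.37 for Suz12 and -0.50 for Ezh1. Whether these words bear on the level of any member was not tested. The table holds 11 windows for the 10 members, with a pair for Jarid2. Of 32851 promoter windows of the same length in the table, 744 (2.26%) hold at least 1 of these words on either strand. Each of the 4 words contains CG, and the median of all windows is 7 CG. The members' windows hold more, from 17 in Eed to 41 in Suz12, with 31 in Ezh2 and 23 in Ezh1. The share among windows as rich in CG was not counted, so 2.26% is not a like background. A match is a description of letters and not a bound site. The genes span chr6:47530139-47595341 (Ezh2) and chr11:101191115-101226463 (Ezh1) on GRCm38. The Ezh2 window lies wholly inside that span, so the RefSeq start taken for it is not the outer end of the gene. The Cbx7 window and both Jarid2 windows likewise lie inside the spans of their genes. A word found or missing holds only for the starts taken here. Ezh2 overlaps the noncoding gene Gm26625 on the opposite strand over 5039 bases and the pseudogene Gm44282 over 190 bases, and since the sources used here do not say whether strand was kept, its reads are uncertain there, as they are for the overlaps of other members named below; Ezh1 overlaps no other annotated gene.

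Ezh2, the main catalytic subunit of PRC2 in dividing cells, had a lower mean in KO than in WT libraries in the 4 GFP populations, without passing the test in any. In GFP-high MPPs it was at 4.33, 4.47 and 5.71 FPKM in KO libraries, against 7.21, 6.84 and 6.01 FPKM in WT libraries, a difference of -0.40 ± 0.15 (SE; unadjusted p = 0.0243, limma adjusted p = 0.605). Without the third KO library, which holds the high neutrophil signal, the difference was -0.51 (limma adjusted p = 0.264). Leaving out each library in turn gave -0.51 to -0.34. In GFP-high HSCs Ezh2 was at 4.37, 4.87 and 5.44 FPKM in KO libraries, against 7.49, 5.72 and 5.98 FPKM in WT libraries (-0.32 ± 0.14, SE; unadjusted p = 0.0452, limma adjusted p = 0.477). Every KO library lay under every WT library in both.

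In GFP-low MPPs Ezh2 had 6.0, 6.42 and 7.34 FPKM in KO and 7.67, 8.12 and 7.91 FPKM in WT libraries, again without overlap (-0.235 ± 0.124, SE; limma adjusted p = 0.473). GFP-low HSCs had 6.85, 6.32 and 7.42 FPKM in KO and 7.12, 7.17 and 10.8 FPKM in WT libraries, which overlap (-0.23 ± 0.18, SE; limma adjusted p = 0.79). There 10.8 FPKM was the only WT value above every KO value, and leaving out each library in turn gave -0.32 to -0.05. The first cohort had no such pattern. MPPs had 11.3, 10.3, 14.2 and 10.1 FPKM in KO libraries, all above the 9.05, 9.56, 9.86 and 8.58 FPKM in WT libraries (0.27 ± 0.13, SE; limma adjusted p = 0.325). HSCs had 12.7, 12.3, 11.1 and 13.7 FPKM in KO and 15.6, 11.3, 12.4 and 10.5 FPKM in WT libraries, with means equal at 12.5 FPKM.

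Ezh1, the paralog with weaker methyltransferase activity, was lower in KO libraries of the first cohort. MPPs had 3.91, 3.55, 2.35 and 4.03 FPKM in KO libraries, all under the 4.24, 5.71, 4.41 and 5.97 FPKM in WT libraries. The difference was -0.45 ± 0.17 (SE; unadjusted p = 0.0223, limma adjusted p = 0.228), and -0.52 without the fourth KO library (limma adjusted p = 0.148). Leaving out each library in turn gave -0.52 to -0.32. The limma adjusted p of Ezh1 was 0.08 in a joint fit of HSCs and MPPs, the lowest of any member under any setting. HSCs had 3.32, 3.29, 3.71 and 3.03 FPKM in KO and 3.57, 4.8, 3.99 and 4.45 FPKM in WT libraries, which overlap by 1 library (-0.26 ± 0.12, SE; unadjusted p = 0.047, limma adjusted p = 0.49). In the 4 GFP populations the groups overlapped and the difference stayed between -0.08 and 0.04. Over the 6 comparisons it was negative in all but 1, GFP-high MPPs.

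Eed, the core subunit that reads H3K27me3, differed most in GFP-low HSCs, with 7.83, 4.97 and 9.57 FPKM in KO and 10.6, 10.7 and 9.38 FPKM in WT libraries. The third KO library, with the high neutrophil signal, lay inside the WT range. The difference was -0.45 ± 0.21 (SE; limma adjusted p = 0.615), and -0.63 without that library (limma adjusted p = 0.273). Leaving out each library in turn gave -0.63 to -0.22. In GFP-high MPPs Eed had 6.08, 7.25 and 10.2 FPKM in KO and 10.0, 9.86 and 9.38 FPKM in WT libraries, where the third KO library was again the high one (-0.31 ± 0.18, SE; limma adjusted p = 0.791). Without it the difference was -0.49 (limma adjusted p = 0.256), and leaving out each library in turn gave -0.49 to -0.16. In the other populations the difference lay between -0.04 and 0.10. Eed overlaps E230029C05Rik on the opposite strand over 261 bases and Gm45120 on its own strand over 408 bases.

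Suz12, the other core subunit, was higher in KO HSCs, with 17.5, 17.9, 13.2 and 15.6 FPKM in KO and 14.9, 11.7, 12.9 and 10.9 FPKM in WT libraries. The groups overlap by the third KO and the first WT library (0.33 ± 0.12, SE; unadjusted p = 0.0235, limma adjusted p = 0.415). MPPs had 14.7, 19.7, 16.0 and 13.2 FPKM in KO and 16.5, 13.0, 13.3 and 9.46 FPKM in WT libraries (0.27 ± 0.17, SE; limma adjusted p = 0.459). GFP-high HSCs went the other way, with 2.99, 3.38 and 2.23 FPKM in KO and 4.59, 4.18 and 3.02 FPKM in WT libraries (-0.347 ± 0.175, SE; limma adjusted p = 0.541). Suz12 overlaps the noncoding gene Gm26563 on the opposite strand over 12515 bases. Jarid2 was at 3.68 to 6.16 FPKM in the first cohort and 1.53 to 3.86 FPKM in the H2B-GFP cohort. Its differences lay between -0.08 and 0.26, with overlapping groups in all 6 comparisons.

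Bmi1, the PRC1 subunit known from HSC self-renewal, was higher in KO libraries of both cell types in the first cohort. HSCs had 10.6, 8.25, 9.26 and 10.5 FPKM in KO and 9.07, 7.26, 7.71 and 7.7 FPKM in WT libraries, with 3 of 4 KO libraries above every WT library (0.25 ± 0.11, SE; unadjusted p = 0.0435, limma adjusted p = 0.479). MPPs had 10.1, 9.93, 13.1 and 9.97 FPKM in KO libraries, above the 9.66, 7.37, 9.22 and 9.04 FPKM in WT libraries (0.26 ± 0.13, SE; limma adjusted p = 0.365). In GFP-high HSCs Bmi1 was lower, at 3.23, 2.95 and 2.98 FPKM in KO and 3.56, 3.52 and 3.97 FPKM in WT libraries, without overlap (-0.21 ± 0.12, SE; limma adjusted p = 0.605). The other GFP populations overlapped.

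Rnf2, the main E3 ubiquitin ligase of PRC1, gave 5 positive differences of 6, none beyond 0.12, and -0.29 ± 0.16 in GFP-low HSCs (SE; limma adjusted p = 0.674). HSCs had 17.0, 16.3, 18.0 and 15.8 FPKM in KO and 16.0, 19.1, 15.4 and 16.4 FPKM in WT libraries. In MPPs it was at 13.8, 12.4, 15.7 and 24.2 FPKM in KO and 14.8, 18.2, 11.4 and 15.8 FPKM in WT libraries. The value of 24.2 FPKM belongs to the fourth KO library, without which the difference of 0.10 became -0.09. Rnf2 overlaps the coding gene Trmt1l on the opposite strand over 158 bases and Gm36527 on its own strand over 3029 bases.

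Ring1, its paralog, was in that same library at 1.1 FPKM, the lowest of all 40. MPPs had 3.99, 4.0, 2.61 and 1.1 FPKM in KO and 3.26, 4.88, 4.02 and 2.9 FPKM in WT libraries, a difference of -0.34 with the fourth KO library and -0.07 without it. In GFP-low MPPs Ring1 had 3.54, 3.17 and 3.92 FPKM in KO and 1.63, 3.35 and 1.95 FPKM in WT libraries, with 1 WT library inside the KO range (0.49 ± 0.20, SE; unadjusted p = 0.0404, limma adjusted p = 0.378). In the other GFP populations KO minus WT was negative, at -0.43 (GFP-high HSCs), -0.39 (GFP-high MPPs) and -0.30 (GFP-low HSCs), with overlapping groups.

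Cbx8, a reader of H3K27me3, had the smallest p of any member. GFP-high HSCs had 4.37, 3.92 and 5.06 FPKM in KO libraries, above the 3.05, 2.51 and 3.15 FPKM in WT libraries. The difference was 0.48 ± 0.14 (SE; unadjusted p = 0.00754, limma adjusted p = 0.319). In the other populations it lay between -0.20 and 0.37 with overlap. Cbx7, the reader known from self-renewing cells, was at 2.2, 2.57, 1.41 and 2.18 FPKM in KO HSCs and 1.19, 1.46, 0.929 and 1.99 FPKM in WT HSCs (0.37 ± 0.18, SE; limma adjusted p = 0.513), and between -0.10 and 0.205 elsewhere. Cbx7 overlaps Apobec3 on the opposite strand by 100 bases.

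The second question was whether the KO difference itself varies between populations, tested as an interaction. The scale of a table cancels in it only in part, since 1 is added to each FPKM, which matters most for low genes. No member passed any of the 5 tests (limma adjusted p at least 0.699). Between HSCs and MPPs 0 of 10 members passed, where 1 of 13166 genes did (0.0076%), and 0 of 10 had an unadjusted p under 0.05 (7.84% of genes). The difference of KO effects, HSCs minus MPPs, was 0.20 for Ezh1 (95% interval -0.23 to 0.62) and -0.26 for Ezh2 (-0.63 to 0.12). In the 4 tests of the H2B-GFP cohort 0.0% of genes passed. Unadjusted p under 0.05 was seen for 0 of 10 members between GFP-high HSCs and GFP-high MPPs (2.74% of genes) and 0 between GFP-low and GFP-high HSCs (3.35%). It was seen for 1 between GFP-low HSCs and GFP-low MPPs (4.56%) and 1 between GFP-low and GFP-high MPPs (2.7%). Both times this was Ring1, which was singled out by that p. Its KO effect in GFP-low HSCs minus that in GFP-low MPPs was -0.785 ± 0.309 (SE; unadjusted p = 0.0244, limma adjusted p = 0.972). Its KO effect in GFP-low minus that in GFP-high MPPs was 0.88 ± 0.30 (SE; unadjusted p = 0.0109, limma adjusted p = 0.999). The same GFP-low MPP libraries enter both, so the 2 values are not independent.

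The third question was how HSCs differ from MPPs. Because the tables are scaled apart, paralogs were compared within each library, as the difference of their log2(FPKM + 1), and the 6 tests of the first cohort were adjusted together. In WT cells the balance lay further towards Ezh2 in HSCs than in MPPs. Ezh2 minus Ezh1 was 1.86, 1.08, 1.43 and 1.08 in WT HSCs, against 0.94, 0.654, 1.01 and 0.46 in WT MPPs. The 2 groups do not overlap, and the difference was 0.60 (exact permutation test, two-sided, p = 0.0286, the smallest that 4 against 4 allows; adjusted p = 0.0857). In FPKM, Ezh2 was 2.35 to 4.38 times Ezh1 in WT HSCs and 1.44 to 2.24 times Ezh1 in WT MPPs. KO cells showed 1.67, 1.63, 1.37 and 1.87 in HSCs, against 1.32, 1.31, 2.19 and 1.14 in MPPs, which overlap (0.14; exact permutation p = 0.543, adjusted p = 0.651). Whether the WT and KO differences differ from each other was not tested. Among MPPs, the 1.14 to 2.19 of KO libraries lay above the 0.46 to 1.01 of WT libraries.

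The ubiquitin ligases gave a like order in WT cells. Rnf2 minus Ring1 was 2.36, 3.04, 2.29 and 2.44 in WT HSCs, against 1.9, 1.71, 1.31 and 2.1 in WT MPPs, without overlap. The difference was 0.78 (exact permutation p = 0.0286, adjusted p = 0.0857). In KO cells it was 2.68, 2.42, 2.59 and 2.17 in HSCs, against 1.57, 1.42, 2.21 and 3.59 in MPPs (0.27; exact permutation p = 0.657, adjusted p = 0.657). The value of 3.59 is again the fourth KO library; without it the difference was 0.73, and an exact test of 3 against 4 libraries cannot go below p = 0.0571. Cbx8 minus Cbx7 differed by -0.55 in KO cells (exact permutation p = 0.0857, adjusted p = 0.171) and by 0.23 in WT cells (exact permutation p = 0.343, adjusted p = 0.514), HSCs minus MPPs, with overlapping groups in both. No ratio thus passed after adjustment, but this could hardly have come out otherwise. In WT cells Ezh2 minus Ezh1 and Rnf2 minus Ring1 both stood at the smallest exact permutation p possible, 0.0286. Adjustment over the 6 tests took that to 0.0857. The adjusted values therefore cannot tell a missing difference from too few libraries.

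**Figure D4:**
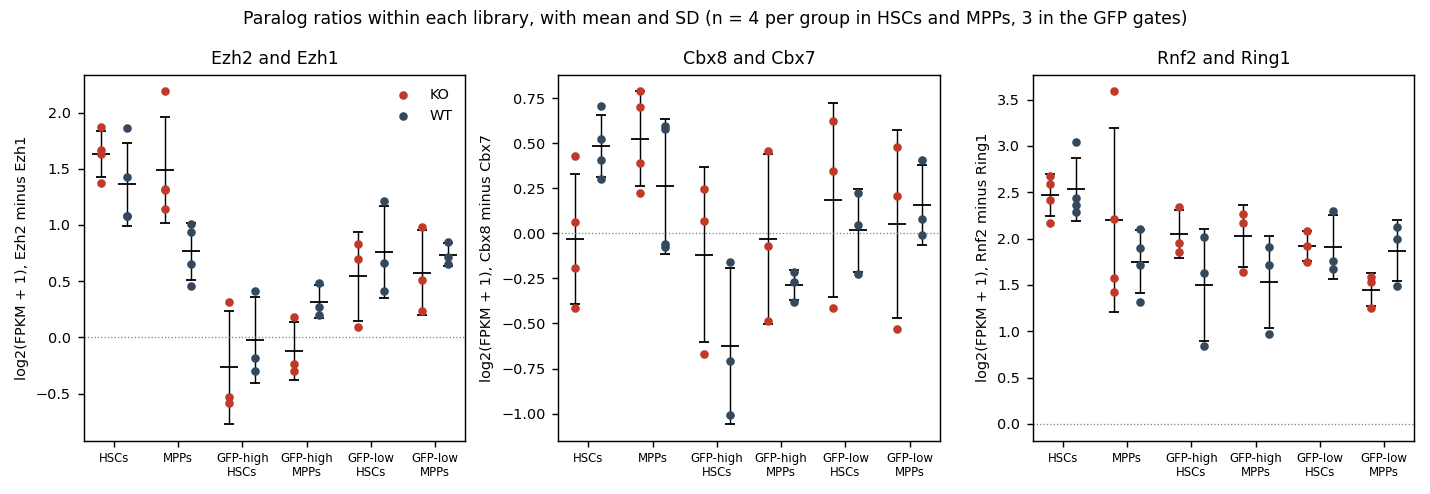
Difference of log2(FPKM + 1) between paralogs within each library (y axis), for the 6 populations with KO left of WT; points are libraries, bars the mean and SD. Ezh2 minus Ezh1 lies between -0.585 and 0.483 in the GFP-high populations and at 1.08 or more in HSCs of the first cohort.

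In the H2B-GFP cohort only values are given, since an exact test of 3 against 3 libraries cannot go below p = 0.1. For Ezh2 minus Ezh1, HSCs and MPPs of the same gate and genotype overlapped. Ezh2 minus Ezh1 was 0.0951, 0.701 and 0.831 in KO GFP-low HSCs, against -0.585, -0.53 and 0.311 in KO GFP-high HSCs. It was 0.662, 0.412 and 1.21 in WT GFP-low HSCs, against 0.416, -0.185 and -0.299 in WT GFP-high HSCs. Both pairs overlap. In MPPs the gates did not overlap. The values were 0.506, 0.236 and 0.985 in KO GFP-low MPPs against -0.299, -0.241 and 0.179 in KO GFP-high MPPs. They were 0.845, 0.649 and 0.718 in WT GFP-low MPPs against 0.483, 0.268 and 0.203 in WT GFP-high MPPs. In FPKM, the median Ezh2 was 1.79 times Ezh1 in WT GFP-low MPPs and 1.24 times in WT GFP-high MPPs, and in KO GFP-high HSCs it was 0.651 times Ezh1. Rnf2 minus Ring1 was 1.25 to 1.58 in KO GFP-low MPPs and 1.49 to 2.12 in WT GFP-low MPPs, and 1.75 to 2.08 in KO GFP-low HSCs and 1.67 to 2.3 in WT GFP-low HSCs.

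The rank of each gene within its library allows a look at single members. Ring1 ranked lower in HSCs than in MPPs in the WT libraries of the first cohort, at percentiles 3.08 to 12.7 in HSCs and 15.1 to 30.5 in MPPs. Ezh2 ranked higher, at 57.0 to 68.9 in WT HSCs and 49.6 to 55.2 in WT MPPs. These 2 of 10 members had no overlap in WT, where 21.5% of the 9338 symbols had none. In KO libraries of the first cohort 2 of 10 had none (17.2% of symbols). These were Eed, at 64.1 to 67.8 in HSCs and 69.1 to 76.3 in MPPs, and Cbx8, at 6.12 to 11.3 in HSCs and 15.2 to 26.7 in MPPs. Between GFP-high HSCs and GFP-high MPPs the only member apart in KO was Bmi1 (1 of 10; 15.2% of symbols), at 20.7 to 24.4 in HSCs and 29.1 to 31.9 in MPPs. In WT 3 of 10 were apart there (16.8% of symbols). Ezh1 ranked higher in HSCs (41.2 to 52.0 in HSCs and 36.3 to 40.5 in MPPs), Cbx8 lower (15.6 to 22.6 in HSCs and 26.5 to 36.0 in MPPs) and Eed lower, with a mean percentile of 51.4 in HSCs and 59.1 in MPPs. Between GFP-low HSCs and GFP-low MPPs Ring1 was apart in KO (1 of 10; 13.8% of symbols), at 5.49 to 14.2 in HSCs and 23.6 to 31.7 in MPPs. In WT 2 of 10 were apart (20.4% of symbols). These were Bmi1, at 20.9 to 22.9 in HSCs and 18.5 to 19.5 in MPPs, and Rnf2, at 64.9 to 67.5 in HSCs and 60.7 to 62.8 in MPPs. The shares of members lie near or below those of all symbols but for GFP-high WT cells, and no member was apart in both genotypes of a pair. These ranks are descriptions with no test.

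The level of Ezh2 went with that of genes used in S phase. Over the 40 libraries, with each library centred on the mean of its table, Ezh2 and the summed FPKM of 24 S phase genes (Mcm2, Pcna, Rrm2 and others) had a Pearson r of 0.70 (Spearman rho 0.74). Eed had r = 0.55 and Suz12 r = 0.37, while Ezh1 had r = -0.50 (rho -0.34) and Cbx7 r = -0.51 (rho -0.46). The remaining 5 members lay between -0.27 and 0.22. Centred on the mean of its own group, which removes the KO and WT difference, r was 0.48 for Ezh2, 0.56 for Eed, -0.63 for Ezh1 and -0.62 for Cbx7. Leaving out the 2 libraries farthest from the median gave 0.71 for Ezh2 and -0.46 for Ezh1. With 24 mitosis genes r was 0.43 for Ezh2 and -0.51 for Ezh1. Libraries of a table share their scaling and perhaps animals, and no p is given.

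**Figure D5:**
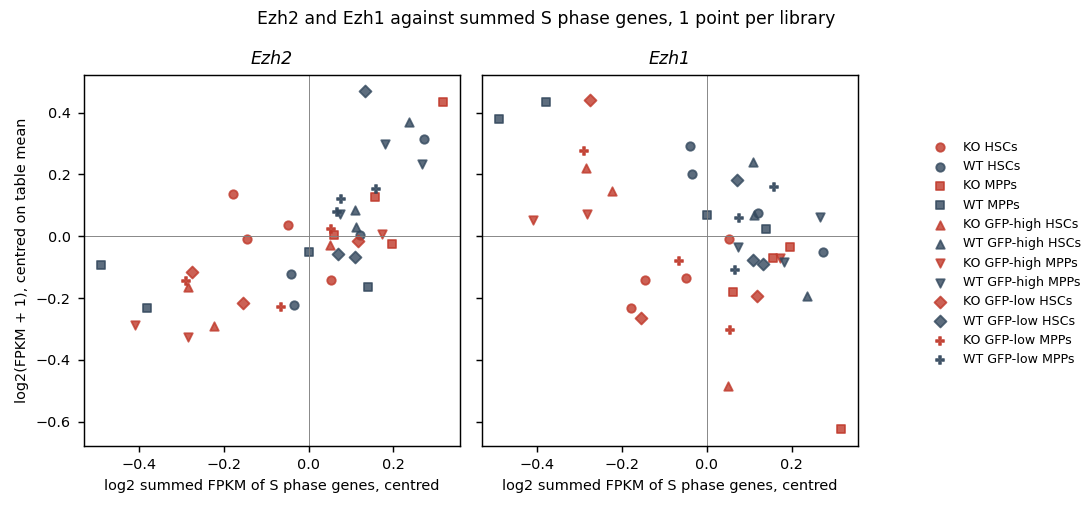
log2(FPKM + 1) of Ezh2 and Ezh1 (y axes) against log2 of the summed FPKM of 24 S phase genes (x axis), 1 point per library and all centred on the mean of the table; colour gives KO or WT and shape the population. Ezh2 follows the S phase sum (r = 0.70 over 40 libraries) and Ezh1 runs against it (r = -0.50).

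The S phase sum, set beside the KO and WT groups, was apart in 2 of the 4 populations in which Ezh2 did not overlap. For GFP-high HSCs it was 492 to 620 FPKM in KO and 646 to 706 FPKM in WT libraries, and for GFP-low MPPs 697 to 885 FPKM in KO and 892 to 952 FPKM in WT. It overlapped in GFP-high MPPs (467 to 699 FPKM in KO and 653 to 746 FPKM in WT) and in MPPs of the first cohort (742 to 886 FPKM in KO and 506 to 784 FPKM in WT). Where the Ezh2 groups overlap, it was 812 to 953 FPKM in KO and 893 to 1110 FPKM in WT libraries of HSCs, and 702 to 921 FPKM in KO and 891 to 931 FPKM in WT libraries of GFP-low HSCs. The mitosis sum did not follow Ezh2 in the same way. It overlapped in GFP-high HSCs (192 to 314 FPKM in KO and 272 to 388 FPKM in WT) and in GFP-high MPPs (215 to 501 FPKM in KO and 284 to 376 FPKM in WT). In GFP-low MPPs its median was higher in KO libraries, at 479 FPKM in KO and 389 FPKM in WT, while Ezh2 and the S phase sum were lower in KO. It was apart in MPPs, at 323 to 493 FPKM in KO and 143 to 300 FPKM in WT libraries, and in HSCs, at 520 to 646 FPKM in KO and 475 to 514 FPKM in WT, where the Ezh2 groups overlap. In GFP-low HSCs it was 290 to 701 FPKM in KO and 396 to 554 FPKM in WT libraries. Their part in the Ezh2 and Ezh1 values was not tested. No gene of either list passed the KO test in limma, while limma-voom called the mitosis genes Birc5, Ccna2 and Ccnb1 and the S phase gene Rrm2 in MPPs.

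By the same measure of likeness, over 40 libraries and 9338 symbols, the 5 genes most like Ezh2 were Top2a (r = 0.80), Smc2 (r = 0.76), Topbp1 (r = 0.75), Tmpo (r = 0.735) and Zfp367 (r = 0.733). Top2a is one of the 24 mitosis genes. The 5 most like Ezh1 were Sdccag8 (r = 0.80), Fbxl20 (r = 0.73), Tor4a (r = 0.725), Lrrn4 (r = 0.705) and Rab5b (r = 0.70). Among the members themselves the highest r was that of Ezh2 and Eed (0.45), and the lowest were those of Suz12 with Cbx8 (-0.52), Suz12 with Ezh1 (-0.50) and Ezh1 with Ezh2 (-0.44).

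The rest of the pathway gave no call in limma or in limma-voom. Of 9 further PRC2 subunits 7 or 8 were tested per population and 0 passed in either direction, with medians of -0.14 to 0.04 against medians of all genes between -0.0042 and 0.00427. At an unadjusted p under 0.05 there were 1 of 7 in HSCs (10.1% of all genes), 0 of 7 in MPPs (16.6%), 2 of 7 in GFP-high HSCs (10.4%), 1 of 7 in GFP-high MPPs (7.09%), 1 of 7 in GFP-low HSCs (8.57%) and 1 of 8 in GFP-low MPPs (12.3%). The highest were Rbbp7 and Rbbp4, histone-binding subunits shared with other complexes. Rbbp7 was at 118 ± 11.9 FPKM in KO HSCs and 136 ± 13.0 FPKM in WT HSCs (SD, n = 4 each; limma adjusted p = 0.55). Rbbp4 was at 20.4 ± 3.61 FPKM in KO HSCs and 18.8 ± 1.28 FPKM in WT HSCs (SD, n = 4 each). Of 25 further PRC1 subunits 22 to 24 were tested and 0 passed, with medians of -0.09 to 0.04. Against those same shares of all genes, an unadjusted p under 0.05 was found for 6 of 24 in HSCs, 2 of 24 in MPPs, 1 of 23 in GFP-high HSCs, 3 of 24 in GFP-high MPPs, 1 of 23 in GFP-low HSCs and 0 of 22 in GFP-low MPPs. Yaf2, an adaptor of variant PRC1, averaged 27.4 ± 2.75 FPKM in KO HSCs and 21.3 ± 2.54 FPKM in WT HSCs (SD, n = 4 each), with 0.35 ± 0.11 (SE; unadjusted p = 0.00997, limma adjusted p = 0.314). Cbx6, a further CBX protein, averaged 13.6 ± 0.877 FPKM in KO HSCs and 13.1 ± 1.06 FPKM in WT HSCs (SD, n = 4 each).

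The opposing enzymes gave 0 calls as well. Of 10 genes of PR-DUB, which removes ubiquitin from H2A, and its partners, 8 were tested per population and 0 passed. At an unadjusted p under 0.05 there was 1 of 8 in GFP-low HSCs (8.57% of all genes). Each other population had 0 of 8 (7.09% to 16.6% of all genes). Ogt averaged 58.0 ± 3.7 FPKM in KO MPPs and 67.9 ± 9.51 FPKM in WT MPPs (SD, n = 4 each), with limma adjusted p = 0.41. Hcfc1 averaged 18.8 ± 0.623 FPKM in KO HSCs and 17.8 ± 1.12 FPKM in WT HSCs (SD, n = 4 each). Of the 2 demethylases of H3K27 neither passed in any population. At an unadjusted p under 0.05 there was 1 of 2 in HSCs (10.1% of all genes). Each other population had 0 of 2 (7.09% to 16.6% of all genes). Their summed FPKM had no overlap in HSCs, at 14.1 to 17.7 in KO and 11.7 to 13.6 in WT (6.2% of all single genes). Nor had it in GFP-high MPPs, at 5.81 to 5.85 in KO and 4.75 to 5.55 in WT (13.3%). The sums overlapped in the other populations and were not tested. Kdm6b had 9.44 ± 1.61 FPKM in KO HSCs and 7.3 ± 0.928 FPKM in WT HSCs (SD, n = 4 each; 0.33 ± 0.13, SE; unadjusted p = 0.0323, limma adjusted p = 0.446). Its paralog Kdm6a had 6.53 ± 1.1 FPKM in KO HSCs and 5.43 ± 0.568 FPKM in WT HSCs (SD, n = 4 each; limma adjusted p = 0.582).

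Of 7 genes known to be held silent by Polycomb in blood cells, only Hmga2 was high enough to be tested. Hmga2, a chromatin protein of fetal HSCs, averaged 4.05 ± 0.81 FPKM in KO MPPs and 3.09 ± 0.644 FPKM in WT MPPs (SD, n = 4 each; 0.30 ± 0.17, SE; limma adjusted p = 0.407). It did not pass in any population. Cdkn2a, the senescence locus that derepresses when Bmi1 is lost, was listed in the tables of GFP-high and GFP-low HSCs alone, at no more than 0.169 FPKM in KO libraries and 0.0668 FPKM in WT libraries. Cdkn2b, its neighbour, reached 0.16 FPKM in KO MPPs and 0.211 FPKM in KO GFP-high HSCs and was at 0 in their WT libraries. The B cell factors Ebf1 and Pax5 and the fetal gene Lin28b reached at most 0.413 FPKM in any library, and Igf2bp3 was at 0.284 to 0.81 FPKM in KO libraries and 0.311 to 0.792 FPKM in WT libraries. In GFP-high HSCs Igf2bp3 was at 0.396 to 0.487 FPKM in KO and 0.556 to 0.782 FPKM in WT libraries, without overlap. Lin28b was there at 0.0713 to 0.16 FPKM in KO and 0.00863 to 0.0402 FPKM in WT, also without overlap. Of all genes tested in GFP-high HSCs, 16.1% had no overlap. In the other populations both genes overlapped. Igf2bp3 averaged 0.564 FPKM in KO and 0.441 FPKM in WT GFP-low HSCs, the other direction. These 6 genes were under the filter on low values, so no test was made of them.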

How the data were processed

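Libraries of polyA RNA from sorted bone marrow cells were made with SMART-Seq2 and Nextera XT, per the labels' protocols. The authors deposited 6 tables of FPKM, 1 per population, with 1 column per library; every one of the 40 value columns matched a library, which leaves 0 unmatched. STAR, DESeq2, HOMER and mm10 are named in the submitters' processing notes, without role, order or setting. FPKM steps gave whole reads for at least 99.99% of genes (tolerance 0.01), and the values are scaled within a table, so that no level was tested across tables. Strandedness is not given in the sources used here.

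Groups came from the labels. Genes with at least 1 FPKM in 4 (first cohort) or 3 (H2B-GFP cohort) libraries were tested per table with limma 3.58.1 in R 4.3.3 (trend, two-sided) on log2(FPKM + 1), KO minus WT, with Benjamini-Hochberg adjustment over all genes tested and a threshold of 0.05. All 10 members passed this filter in every table. Interactions were fitted over pairs of tables. Ratios of paralogs were tested by exact permutation (scipy 1.17.1, Python 3.11.15). The limma script was tested on simulated data. Alternatives were another pseudocount (0.1), filters, rescaling, library weights, a replicate block, joint fits, leaving out each library and, added after seeing the data, limma-voom on the recovered reads. KO and WT libraries of the same number correlated at -0.116 to 0.285 in their deviations, so that the numbers were not taken as pairs. This was examined within a population only. Whether libraries of different populations came from the same animals is not stated and was not examined. The interaction and ratio tests took them as independent, and their p-values rest on that.

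The members and lists were chosen with earlier results of these data known. Named genes are the 10 members and, for each further list, those past the test or else the 2 with the largest mean FPKM; the 5 genes most like Ezh1 and Ezh2 were ranked by Pearson r over libraries centred on their table. No 2 libraries of a group agreed within sampling noise (lowest chi-square per gene 7.33). Promoter sequences are from RefSeq (GRCm38.p6), matched by symbol for 10 of 10 members.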

Additional observations from a re-analysis of the deposited data

Results flagged for a closer look

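A single library lay far from the other 3 of its group in 2 of 52 groups of 4 libraries examined (each gene or ratio in each group of the first cohort); chance alone gives about 1 in 20 such groups. Ring1 was at 1.45 FPKM in the second WT library of HSCs, with the others at 2.22 to 2.35 FPKM. Bmi1 was at 13.1 FPKM in the third KO library of MPPs, with the others at 9.93 to 10.1 FPKM.

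Ezh2 differed in direction between populations. In MPPs of the first cohort every KO library lay above every WT library (0.271 on the log2 scale, KO minus WT). Every KO library lay below every WT library in GFP-high HSCs (-0.324), GFP-high MPPs (-0.402) and GFP-low MPPs (-0.235). Bmi1 likewise had every KO library above every WT library in MPPs (0.258) and below in GFP-high HSCs (-0.209). The difference between the cohorts was not tested for either gene. Annotation, time after poly(I:C) and depth also differ between them and cannot be told apart.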

How the results depend on the processing

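No member passed the test in any of 1820 combinations of member and setting, and the lowest limma adjusted p of a member was 0.08. Of 60 member differences, 38 kept their sign under every alternative, and 9 changed it only when a library was left out. The counts of all genes past the test depended more on the settings, and the cause was not tested. In HSCs the count of 17 became 2 without a filter, 26 with a stricter filter, 6 after rescaling, 33 with library weights, 10 with the replicate block, 8 in the joint fit and 27 in limma-voom, an alternative chosen after seeing the data. In MPPs the count of 15 became 7 with the pseudocount of 0.1, 0 without a filter, 72 with a stricter filter, 247 with weights, 137 with the replicate block, 560 in the joint fit and 112 in limma-voom. GFP-high HSCs had 3, 5 with weights and 0 in the joint fit. GFP-high MPPs had 0, and 3 in the joint fit. GFP-low HSCs had 0, 3 with weights and 7 in the joint fit. GFP-low MPPs had 34, 2 without a filter, 52 with the replicate block and 20 in the joint fit. The interaction between HSCs and MPPs had 1, 5 without a filter and 0 with a stricter filter, rescaling or the replicate block, and that between GFP-low and GFP-high MPPs 0, and 1 without a filter. The replicate block called no member. Of 40 libraries 12 correlated best with their own number, from 0 of 8 in HSCs to 4 of 6 in GFP-low HSCs. These counts do not decide whether libraries were paired.

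Leaving out 1 library gave 8 to 17 in HSCs, 0 (without WT library 2) to 194 (without KO library 4) in MPPs, 0 to 2 in GFP-high HSCs, 0 to 3 in GFP-high MPPs, 0 to 9 in GFP-low HSCs and 0 to 35 in GFP-low MPPs. For interactions it gave 0 to 18 between HSCs and MPPs, 0 to 1 between GFP-low HSCs and GFP-low MPPs and 0 to 1 between GFP-low and GFP-high MPPs.

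Member differences near 0 turned round. Rescaling gave -0.0577 for Rnf2 and -0.0503 for Ezh2 in HSCs, and 0.0372 and 0.0474 for Cbx7 in GFP-high HSCs and MPPs. Weights gave -0.00324 for Ring1 and -0.00586 for Ezh2 in HSCs, 0.0459 for Jarid2 in MPPs, -0.000441 for Eed and 0.0205 for Jarid2 in GFP-high HSCs, -9.26e-05 for Rnf2, 0.0979 for Cbx7 and -0.0353 for Suz12 in GFP-high MPPs, and 0.0142 for Bmi1 in GFP-low HSCs. Limma-voom gave 0.00114 for Jarid2 in HSCs and 0.00366 for Ezh1 in GFP-low HSCs. Leaving out a library turned 22 of the 60, with these ranges. In HSCs they were -0.101 to 0.00973 for Eed, -0.0593 to 0.119 for Ezh2, -0.0597 to 0.0529 for Jarid2, -0.0353 to 0.137 for Ring1 and -0.0281 to 0.0684 for Rnf2. In MPPs they were -0.22 to 0.0475 for Cbx7, -0.0765 to 0.155 for Eed, -0.101 to 0.0338 for Jarid2 and -0.0916 to 0.213 for Rnf2. In GFP-high HSCs they were -0.234 to 0.0889 for Cbx7, -0.0952 to 0.143 for Eed, -0.208 to 0.145 for Ezh1 and -0.301 to 0.121 for Jarid2. In GFP-high MPPs they were -0.144 to 0.169 for Cbx7, -0.0116 to 0.189 for Rnf2 and -0.0621 to 0.236 for Suz12. In GFP-low HSCs they were -0.388 to 0.0855 for Bmi1 and -0.234 to 0.119 for Ezh1, and in GFP-low MPPs -0.351 to 0.0347 for Cbx8, -0.228 to 0.0613 for Ezh1, -0.049 to 0.178 for Rnf2 and -0.0232 to 0.196 for Suz12.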
